A study of Mus musculus with 16 samples.

Results

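Of the E2f4 regions that both Arid1a WT libraries of regenerating mouse liver called, 340 were called in exactly 1 of the 2 Arid1a KO libraries, and their genes and histone marks are described here. E2f4 binding and the histone marks H3K4me2 and H3K27ac had been mapped by chromatin immunoprecipitation and sequencing (ChIP-seq), and the values are the authors' peak lists, 1 per library. Overlapping peaks of the 4 E2f4 lists (at least 1 bp shared) were merged into 2166 regions. Of these, 792 held a peak of both WT lists, and the 340 are 42.9% of them. KO replicate 2 called 336 of the 340 regions and KO replicate 1 called 4. A further 216 of the 792 were called in both KO lists and 236 in neither.

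KO livers were Arid1a Fl/Fl with Alb-cre, a recombinase under the albumin promoter that acts in hepatocytes, so that other liver cells keep the gene. WT livers carried the same floxed alleles and no Cre. All mice were a mix of C57/B6 and 129, 90 days old, and their livers were collected 40 h after partial hepatectomy, an operation that removes most of the organ and after which the remaining hepatocytes divide. E2f4 had 2 libraries per genotype, and each mark had 1 library per genotype. Whether the replicates were different animals is not given in the labels. In bulk tissue, fewer cells with a bound site and less binding per cell cannot be told apart. The lists hold no read coverage, so the loss of Arid1a could not be checked in them.

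E2f4 is an E2F family member that binds promoters of cell cycle genes with a DP partner and with the pocket proteins Rbl1 (p107) and Rbl2 (p130). In resting cells it sits in the DREAM complex, in which the MuvB core contacts a second promoter element, the cell cycle genes homology region (CHR), that is typical of late cell cycle genes. E2F elements are typical of genes for DNA replication. Arid1a belongs to SWI/SNF, a complex that moves nucleosomes, and binds DNA. H3K4me2 lies at promoters and enhancers, and H3K27ac lies at those that are active.

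The KO replicate 1 list stood apart from the others. It held 287 peaks, against 683 in KO replicate 2, 1791 in WT replicate 1 and 1058 in WT replicate 2, and the depth of all 4 libraries is unknown. The choice of the 340 regions therefore rests largely on which peaks this short list lacks. With KO replicate 1 left out, 552 regions of both WT lists were called in the remaining KO list, and with KO replicate 2 left out, 220 were. When only the 287 strongest peaks of every list were kept, 225 regions were in both WT lists and 54 of them in exactly 1 KO list. Of these 54, 47 were in KO replicate 2 alone and 7 in KO replicate 1 alone. A region without a peak in a list was below the caller's threshold there and may still have been bound.

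Most of the 340 regions lay at gene starts. The promoter sequence under several of them holds letters that match the elements through which E2F and DREAM complexes are known to contact DNA. The promoters printed below are, for each of 7 lists on the cell cycle, repair, chromatin and centrosome, that of the strongest region whose centre fell inside the RefSeq window of 250 bp before to 50 bp after a gene start (GRCm38.p6, the coordinates of build mm10). They are a kinetochore gene (Ndc80), a mitotic kinase gene (Haspin), a replication factor gene (Rfc4), a checkpoint gene (Topbp1), a DNA methylation gene (Uhrf1), an E2F partner gene (Tfdp1) and a centrosome gene (Cep152). Each is written 5′ to 3′ on the strand of the gene. Capitals mark matches on either strand to the E2F element, searched as TTCCCGC and its variants with TTGGCGC, or with TTCGCGC, or else with TTGCCGC, and to the CHR element, searched as TTTGAA or else as TTCGAA.
Ndc80 (chr17:71526808-71527107, minus strand): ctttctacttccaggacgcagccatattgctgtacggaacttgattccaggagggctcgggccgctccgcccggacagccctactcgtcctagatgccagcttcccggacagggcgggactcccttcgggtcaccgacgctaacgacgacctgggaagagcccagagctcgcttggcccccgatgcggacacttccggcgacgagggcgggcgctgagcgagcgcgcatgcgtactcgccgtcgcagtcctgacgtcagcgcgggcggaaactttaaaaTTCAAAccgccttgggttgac
Haspin (chr11:73138245-73138544, minus strand): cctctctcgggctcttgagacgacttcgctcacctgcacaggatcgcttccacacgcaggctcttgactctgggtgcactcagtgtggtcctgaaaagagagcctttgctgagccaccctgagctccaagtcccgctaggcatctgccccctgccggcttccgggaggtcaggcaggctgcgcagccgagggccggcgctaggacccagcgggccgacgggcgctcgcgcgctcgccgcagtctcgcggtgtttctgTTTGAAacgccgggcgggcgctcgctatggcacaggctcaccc
Rfc4 (chr16:23127681-23127980, minus strand): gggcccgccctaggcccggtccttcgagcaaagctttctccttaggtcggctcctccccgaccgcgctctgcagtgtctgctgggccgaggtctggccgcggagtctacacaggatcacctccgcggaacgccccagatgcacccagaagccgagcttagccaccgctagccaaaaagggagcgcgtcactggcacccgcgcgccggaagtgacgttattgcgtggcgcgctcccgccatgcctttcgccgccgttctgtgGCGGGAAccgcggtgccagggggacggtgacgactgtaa
Topbp1 (chr9:103305077-103305376, plus strand): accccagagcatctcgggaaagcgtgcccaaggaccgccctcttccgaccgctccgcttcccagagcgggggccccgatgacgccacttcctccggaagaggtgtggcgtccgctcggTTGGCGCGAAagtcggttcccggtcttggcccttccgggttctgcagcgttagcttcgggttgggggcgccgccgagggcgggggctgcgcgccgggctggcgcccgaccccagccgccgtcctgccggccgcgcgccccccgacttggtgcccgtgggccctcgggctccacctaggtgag
Uhrf1 (chr17:56304063-56304362, plus strand): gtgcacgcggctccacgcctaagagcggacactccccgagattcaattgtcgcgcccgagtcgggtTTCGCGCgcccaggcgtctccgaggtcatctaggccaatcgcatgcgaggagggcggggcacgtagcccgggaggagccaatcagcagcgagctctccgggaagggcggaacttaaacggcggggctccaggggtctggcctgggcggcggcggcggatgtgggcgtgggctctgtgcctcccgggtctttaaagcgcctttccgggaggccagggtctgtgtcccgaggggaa
Tfdp1 (chr8:13338501-13338800, plus strand): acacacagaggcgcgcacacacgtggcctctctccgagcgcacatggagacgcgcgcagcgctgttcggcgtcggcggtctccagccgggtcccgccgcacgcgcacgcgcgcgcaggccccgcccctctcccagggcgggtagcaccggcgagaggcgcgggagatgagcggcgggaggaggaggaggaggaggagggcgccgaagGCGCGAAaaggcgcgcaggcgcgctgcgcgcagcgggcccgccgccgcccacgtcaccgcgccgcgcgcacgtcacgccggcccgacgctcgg
Cep152 (chr2:125625064-125625363, minus strand): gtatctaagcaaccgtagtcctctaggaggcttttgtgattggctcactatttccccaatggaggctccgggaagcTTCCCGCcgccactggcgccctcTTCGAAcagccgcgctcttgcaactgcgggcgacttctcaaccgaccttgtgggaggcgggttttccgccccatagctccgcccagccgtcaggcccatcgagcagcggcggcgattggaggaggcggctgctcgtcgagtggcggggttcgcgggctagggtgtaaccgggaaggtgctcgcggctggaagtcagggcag

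In the Ndc80 promoter the CHR match began 29 bp after the start, 27 bp from the E2f4 summit of WT replicate 1, and no E2F match was found. Haspin likewise held a CHR match, 20 bp from that summit, and no E2F match. In Rfc4 the E2F match lay 7 bp from the summit. In Uhrf1 it lay 5 bp from the summit, and in Tfdp1 13 bp from it. Topbp1 held a pair of overlapping E2F matches, 47 and 50 bp from the summit, which share 4 letters and count as 2. Cep152 held matches to both elements, an E2F match 16 bp and a CHR match 7 bp from the summit. A match is a description of letters and not a shown binding site.

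Over all 180 promoters that held the centre of 1 of the 340 regions, 105 (58.3%, exact Clopper-Pearson 95% interval 50.8 to 65.6%) had at least 1 E2F match. The share was 42.5% of 113 promoters at regions called in both KO lists and 49.6% of 119 at regions called in neither. It was 12.1% over all 21238 protein-coding promoters of the same length. Over the 15656 promoters of genes with any H3K4me2-marked start it was 15.3%. Promoters with 2 or more E2F matches made up 21.1% (15.4 to 27.8%) at the 340 regions, 6.19% (2.53 to 12.3%) at regions of both KO lists and 8.40% (4.10 to 14.9%) at regions of neither, against 1.63% of all promoters. CHR letters were found in 34.4% (27.5 to 41.9%) at the 340 regions, in 50.4% (40.9 to 60.0%) at regions of both KO lists and in 30.3% (22.2 to 39.3%) at regions of neither, against 17.6% of all promoters. Matches to both elements were present in 26 of the 180 promoters (14.4%), against 1.49% of all promoters. Their share was 17.7% at regions of both KO lists and 8.40% at regions of neither. The CCAAT letters of the NF-Y box, a common partner element of mitotic promoters, were in 57.2% of the 180, against 38.2% of all promoters. These letters were as frequent at regions of both KO lists (61.9%) and of neither (58.8%). The median GC content was 62.3% in the 180 promoters and 56.3% in all promoters, so that GC-rich letters such as those of E2F differ in base rate. Intervals cover counting error only, and the differences between the kinds of region were not tested. For at least 1 E2F match, the interval at the 340 regions overlapped those of both other kinds (33.2 to 52.1% and 40.3 to 58.9%). For 2 or more E2F matches, the interval at the 340 regions lay above both others, by a small margin (15.4% against 14.9% at regions of neither). Overlapping matches were counted separately, so 2 matches can be 1 site. Among promoters of genes with an H3K4me2-marked start, 2.11% had 2 or more.

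**Figure D1:**
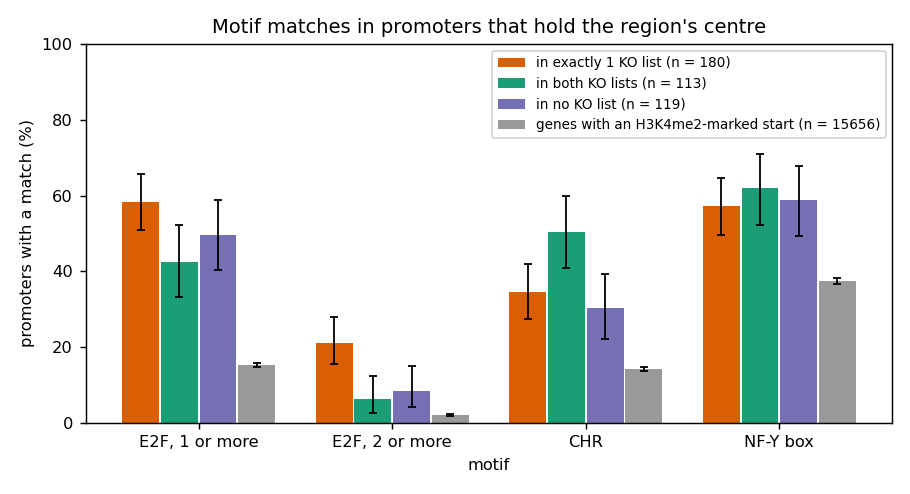
Share of promoters (%, y axis) with a motif match (x axis) among promoters that hold the centre of a region in exactly 1 KO list, in both KO lists or in no KO list, and among promoters of genes with an H3K4me2-marked start. Bars are shares and whiskers exact 95% intervals; E2F matches were in 58.3% of the first kind, and 2 or more matches in 21.1%.

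Where a promoter held an E2F match, the match lay close to the peak summit. Over 103 promoters with both a match and a summit in the window, the median distance from the summit of WT replicate 1 to the nearest match was 21 bp. In 59 of them (57.3%) it was at most 25 bp. At regions of both KO lists the median was 17 bp and at regions of neither it was 20 bp.

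Gene starts accounted for most of the 340 regions. A protein-coding start lay within 1000 bp of the centre of 307 (90.3%, 86.6 to 93.2%), as it did for 94.9% of the regions of both KO lists and 84.7% of those of neither. The centre lay a median of 38 bp upstream of the start over 253 regions with an annotated start and strand, and 136 of these (53.8%) were within 100 bp of it. Within 1000 bp, 62 regions had 2 or more genes, and 365 genes in all (1.67% of 21887 protein-coding genes) were at 1 of the 340 regions. Of these, 72 were placed only by an outer end of the gene, which may be its far end. Exons and introns were not analysed here. Only 4 regions lay more than 10000 bp from any annotated start, and the nearest named genes were Mir15a, Gm52392, Nrarp and Gm8523. The region nearest Mir15a, a microRNA gene, was at chr14:61648677-61648947 and carried H3K4me2 over all 4001 bp around its centre in KO and in WT liver.

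**Figure D2:**
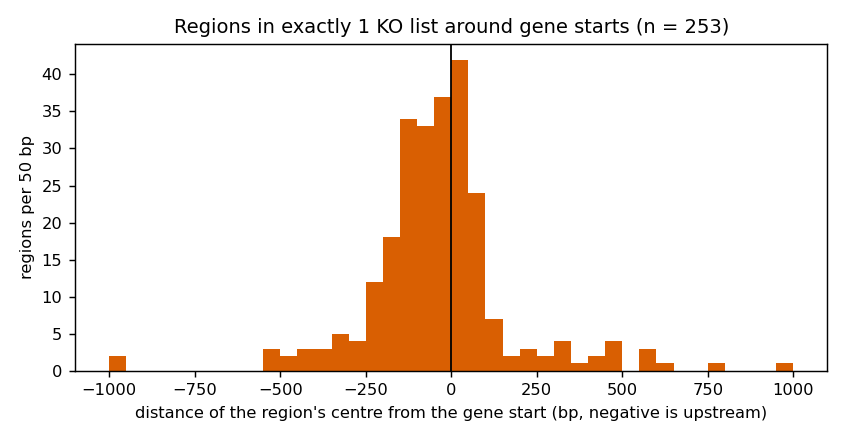
Number of regions (y axis, per 50 bp) in exactly 1 KO list by distance of the region's centre from the nearest gene start (x axis, bp, negative is upstream), for 253 regions. The centres pile up around the start, with a median 38 bp upstream.

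In E2f4 signal the 340 regions stood between the other kinds, but the regions were chosen by these E2f4 peak calls, so their ranks, folds and q-values are a description with no test. Peaks were ranked within each list by the authors' −log10 q-value, with rank 1 the strongest. Since the lists differ in length, ranks do not show a change between libraries. The median rank of the 340 regions was 376.5 in KO replicate 2 (lowest 48, highest 682), and 396.5 in both WT replicate 1 (32 to 1746) and WT replicate 2 (64 to 1057). Regions of both KO lists had median ranks of 108.5 in KO replicate 1, 120 in KO replicate 2, 128.5 in WT replicate 1 and 120.5 in WT replicate 2. Regions of neither KO list had median ranks of 724 and 682 in the WT lists. The ranges of all 3 kinds overlapped. The authors' fold enrichment had a median over the 340 regions of 8.26 in KO replicate 2, and of 11.9 and 12.5 in WT replicates 1 and 2. With unknown depth, these medians do not show a change between libraries either. When the 792 regions were cut into 4 bins of 198 by mean WT rank, those in exactly 1 KO list made up 22.2%, 64.6%, 59.1% and 25.8% of the bins, strongest first. The strongest bin was mostly regions of both KO lists (153), and the weakest mostly regions of neither (142).

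**Figure D3:**
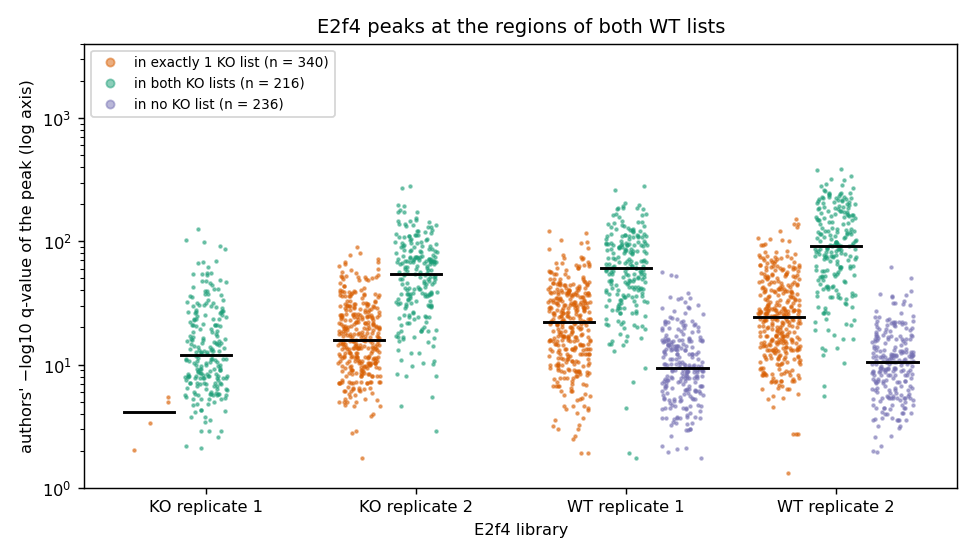
The authors' −log10 q-value of E2f4 peaks (y axis, log axis) at the 792 regions of both WT lists, by library (x axis) and by the number of KO lists that call the region. Each point is a region and black bars are medians. The regions of exactly 1 KO list have medians of 15.7 in KO replicate 2, 22.3 in WT replicate 1 and 24.2 in WT replicate 2, and in the WT libraries these lie between the other kinds.

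The distance between E2f4 summits is bounded by the choice of regions, since the peaks of the 3 lists had to overlap, and is given as a description. The summits of KO replicate 2 and WT replicate 1 were a median of 18 bp apart over 336 regions, and within 50 bp in 293 (87.2%). Summits of the WT replicates were a median of 17 bp apart over all 340. Across the 336 regions the −log10 q-value of KO replicate 2 followed that of WT replicate 1 with a Spearman rho of 0.59 and that of WT replicate 2 with a rho of 0.64. The WT replicates followed each other with a rho of 0.57. These correlations run across regions of the same libraries, which share local sequence and background, and the range of strengths was narrowed by the choice of regions.

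At the edge of the rule stood a few weak calls. The lowest −log10 q-values in the KO list that called the region were 1.75 at Stag1 (a cohesin subunit), 2.01 beside the ribosomal RNA pseudogene Rn18s-rs5 and 2.79 at Atf7ip2. The smallest overlap of a KO peak with a WT peak was 81 bp, at 8030462N17Rik, and all 340 KO peaks overlapped a peak of both WT lists. Of the 340, those at Bard1 and Pcnt lay 255 and 403 bp from a KO replicate 1 peak, which would have placed them in both KO lists had it overlapped. Each of these 2 genes was also at a separate region called in both KO lists. Both genes are therefore counted under both kinds of region in the gene lists below. Just outside the rule, among regions of neither KO list, one at Stmn1 missed a KO replicate 2 peak by 490 bp.

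Counted over the genes of each list, centromere and kinetochore genes had the largest share of any gene list at these regions. Of 39 genes on that list, 16 (41.0%) were at 1 of the 340 regions, 10 at regions of both KO lists and 6 at regions of neither. Over all 21887 protein-coding genes, the share at the 340 regions was 1.67%. Among genes at a region of both WT lists, the kinetochore list did not stand out. Of all such regions 42.9% were in exactly 1 KO list. Mitochondrial genes, for example, had 7 at the 340 regions, 1 at regions of both KO lists and 1 at regions of neither. The 16 kinetochore genes span its layers, with Cenpo, Cenpp, Cenpq, Cenpu, Cenps and Cenpw of the inner centromere complex, Dsn1 and Nsl1 of the Mis12 complex, Ndc80, Nuf2 and Spc24 of the microtubule-binding Ndc80 complex, and Zwilch, Zw10 and Kntc1 of the checkpoint RZZ complex. The Ndc80 region (chr17:71526587-71527065) had −log10 q-values of 65.0 in KO replicate 2 and 117 and 151 in WT replicates 1 and 2. It was the strongest of the 340 by mean WT rank, and KO replicate 1 did not call it. Cenpe, a kinetochore kinesin, had 37.3 in KO replicate 2 and 41.3 and 60.9 in the WT replicates. Here and below, the −log10 q-value is given for each library alone, since it moves with depth and is not compared between libraries.

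Of 82 genes of mitosis and the spindle, 21 (25.6%) were at 1 of the 340 regions, 43 at regions of both KO lists and 2 at regions of neither. The 21 held Ccnb1 (cyclin B1), Cdc20 and Ube2s (which work with the anaphase-promoting complex), the kinesins Kif4, Kif11, Kif18a, Kif20b and Kifc1, the kinases Haspin and Pbk, Sgo2a (shugoshin, which protects centromeric cohesion) and the spindle proteins Tpx2, Ckap5, Knstrn, Ska1 and Ska3. Bora, an activator of mitotic kinases, shared a region with Mzt1 (chr14:99046110-99046544), and its −log10 q-value was 90.7 in KO replicate 2 and 72.5 and 71.2 in the WT replicates. That region had the best KO rank of the 340, 48 of 683. Haspin (chr11:73138108-73138426), the histone H3 kinase of mitosis, had 23.0 in KO replicate 2 and 87.0 and 104 in the WT replicates. Ckap5, a microtubule polymerase, had 48.3 in KO replicate 2 and 97.7 and 74.8 in the WT replicates. The condensin and cohesin list had 4 of 25 genes at the 340 regions (Ncapg, Ncapd3, Pds5b and Stag1) and 8 at regions of both KO lists.

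Replication and repair genes were found at all 3 kinds of region. Of 66 genes of the G1/S transition and DNA replication, 16 (24.2%) were at the 340 regions, 11 at regions of both KO lists and 9 at regions of neither. Among the 16 were origin licensing genes (Cdc6, Cdt1, Mcm4, Mcm5, Mcm7 and the Cdt1 inhibitor Gmnn), the helicase factor Cdc45, the clamp loader subunits Rfc3 and Rfc4, the polymerase subunit Pold1 and the ligase Lig1. Rnaseh2b, a subunit of the enzyme that removes ribonucleotides from DNA, was the strongest of them, with −log10 q-values of 72.2 in KO replicate 2 and 51.2 and 102 in the WT replicates. Gmnn had 36.1 in KO replicate 2 and 39.1 and 69.3 in the WT replicates. Mcm7 and its neighbour Ap4m1 had 2 of the 340 regions within 1000 bp of their starts, and the weaker had 8.06 in KO replicate 2 and 2.62 and 11.5 in the WT replicates. Shmt1, Paics and Ppat, of folate and purine synthesis, were 3 of 33 genes of nucleotide supply.

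Of 110 genes of DNA repair and checkpoints, 23 (20.9%) were at the 340 regions, 15 at regions of both KO lists and 11 at regions of neither. They included Fanconi anaemia genes (Fancd2, Fancg, Fanci, Fancl, Fancm and Ube2t), the recombination genes Rad54l, Xrcc2, Palb2 and Bard1, the mismatch repair gene Msh6, and the checkpoint genes Chek1 and Topbp1. Rmi2, of the Bloom helicase complex, had −log10 q-values of 55.3 in KO replicate 2 and 39.8 and 73.4 in the WT replicates. Topbp1 (chr9:103305047-103305342), which activates the replication checkpoint kinase, had 31.2 in KO replicate 2 and 38.2 and 74.7 in the WT replicates. Chek1, a checkpoint kinase, had 14.4 in KO replicate 2 and 32.4 and 29.9 in the WT replicates.

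Parts of the E2F machinery were themselves at these regions. Of 23 genes of E2F, pocket protein and MuvB components, 5 (21.7%) were there: E2f2 (an activating E2F), Tfdp1 (a DP partner), Rbl1, Lin9 (a MuvB subunit) and Mybl1 (a Myb factor). A further 4 were at regions of both KO lists and 3 at regions of neither. Lin9 had −log10 q-values of 13.3 in KO replicate 2 and 55.9 and 62.6 in the WT replicates. Mybl1 had 25.5 in KO replicate 2 and 7.77 and 36.0 in the WT replicates. Rbl1 had 15.7 in KO replicate 2 and 22.3 and 12.1 in the WT replicates. Of 26 negative regulators of the cell cycle, 3 were at the 340 regions, the kinase Wee1, the phosphatase Cdkn3 and the inhibitor locus Cdkn2a. Myc was the 1 gene of 34 in the list of regeneration signalling, and Bcl7a was the 1 of 26 SWI/SNF subunits.

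Chromatin genes made up 8 of 57 on their list at the 340 regions, with 8 at regions of both KO lists and 7 at regions of neither. Uhrf1, which maintains DNA methylation through replication, had 2 of the 340 regions. The stronger (chr17:56303897-56304442) had −log10 q-values of 67.8 in KO replicate 2 and 120 and 139 in the WT replicates, and the weaker (chr17:56303199-56303520) had 7.13 in KO replicate 2 and 10.6 and 21.6 in the WT replicates. The histone H3K9 methyltransferase genes Suv39h1 and Suv39h2 were among the 8. So were Chaf1a, a subunit of the replication-coupled chromatin assembly factor, and the insulator protein gene Ctcf. Centrosome and cilium genes numbered 14 of 109 at the 340 regions, 8 at regions of both KO lists and 4 at regions of neither. They included the centriole duplication genes Cep152, Cep192, Poc1a and Stil. Cep152 had 50.4 in KO replicate 2 and 66.0 and 73.8 in the WT replicates.

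Genes of nuclear transport, RNA processing and mitochondria were present too. Nuclear pore, lamina and transport genes numbered 9 of 52 (17.3%), including Lmnb1 (lamin B1), Nup107 (a pore scaffold protein) and Ranbp1, which shared a region with Trmt2a at −log10 q-values of 67.5 in KO replicate 2 and 77.1 and 75.8 in the WT replicates. RNA processing genes numbered 9 of 109 (8.26%) and mitochondrial genes 7 of 161 (4.35%). The splicing factor genes Srsf1, Srsf10 and Tra2b and the respiratory chain subunit genes Ndufb8, Ndufs8 and Cox8a were among them. Upf3a, of nonsense-mediated decay, was on none of the lists and had 80.6 in KO replicate 2 and 67.1 and 139 in the WT replicates. In all, 140 of the 365 genes were on at least 1 list and 225 on none. No gene of the lists of hepatocyte (38), lymphocyte, endothelial, macrophage, or stellate cell and cholangiocyte markers (15 each) was at an E2f4 region of any kind.

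**Figure D4:**
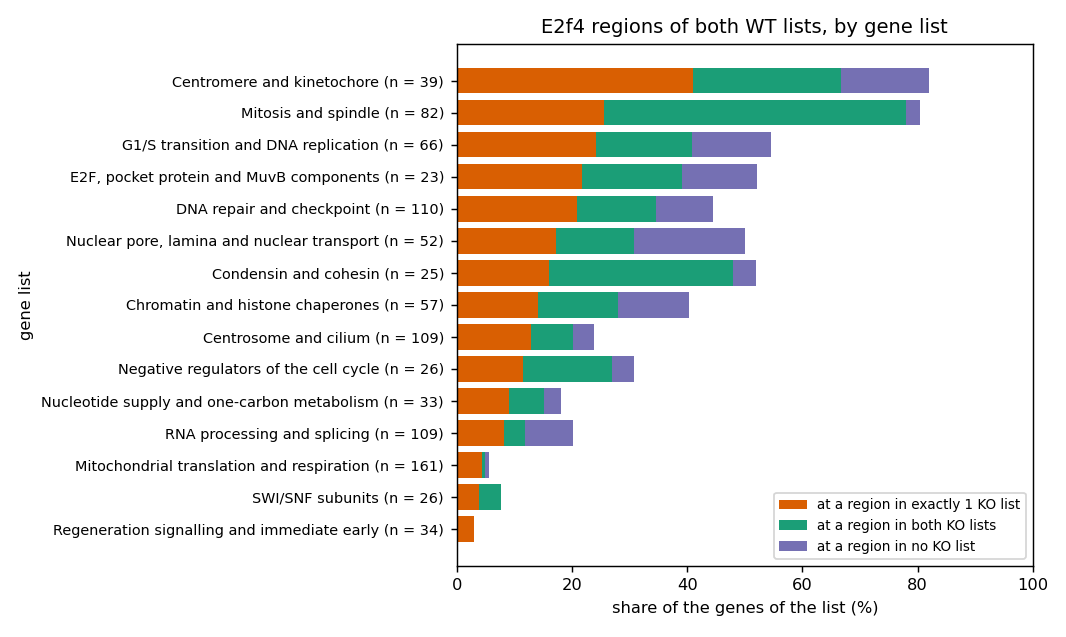
Share of the genes of each list (x axis, %) with a start within 1000 bp of an E2f4 region of both WT lists, by list (y axis, n is the number of genes), coloured by the number of KO lists that call the region. The centromere and kinetochore list has 41.0% of its genes at regions of exactly 1 KO list, and mitosis and spindle 25.6%. Over all protein-coding genes the share is 1.67%.

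The 4 regions called in KO replicate 1 and not in KO replicate 2 were weak in the list that called them. KO replicate 1 gave them ranks of 199 to 278 of 287. One lay at Slfn9 (chr11:82991108-82991626), with −log10 q-values of 3.38 in KO replicate 1 and 18.5 and 13.0 in the WT replicates. Another lay at Gstz1 and Pomt2 (chr12:87147442-87147643), with 4.93 in KO replicate 1 and 10.4 and 15.9 in the WT replicates. The remaining 2 had low fold enrichment, 1.80 and 1.53 in KO replicate 1, and were in repeated or high-copy DNA. One lay beside the ribosomal RNA pseudogene Rn18s-rs5 (chr17:39843632-39846280) and held 6 peaks of WT replicate 1. The other was on the mitochondrial chromosome at positions 3814 to 4746, which also held 1 region of KO replicate 2, at 15276 to 15653 with a fold of 1.42. Without these 3 regions, 337 remained.

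H3K4me2 covered the centre of nearly all of the 340 regions in both genotypes, and H3K27ac that of most. H3K4me2 lay over the centre of 334 in KO and 331 in WT liver, in KO alone at 3 (0.882%, against 3.92% of gene starts with H3K4me2) and in WT alone at 0 (against 2.24%). H3K27ac lay over the centre of 324 in KO and 293 in WT liver. Both marks lay over the centre in both genotypes at 289 (85.0%) and neither mark in either genotype at 3. With 1 library per genotype and mark, no difference in a mark has a replicate check and none was tested. The length covered by each mark within 2000 bp of the region's centre was compared, and a difference of at least 1.5-fold was counted.

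H3K27ac covered more of the 340 regions in KO than in WT liver. The mean covered length was 2104 bp in KO and 1807 bp in WT liver, of 4001 bp, and the mean difference KO minus WT was 297 bp (median 212 bp). It was longer in KO at 249 regions (73.2%), against 44.4% of 15085 gene starts with H3K4me2, and shorter at 77 (22.6%), against 35.2% of these starts. The length was equal at 14 regions (4.12%) and at a larger share of the gene starts, which were chosen by H3K4me2 and not by H3K27ac. By at least 1.5-fold H3K27ac was longer at 72 regions (21.2%), against 11.2% of the gene starts, and shorter at 5 (1.47%), against 7.95%. The mean difference over the gene starts was 53.5 bp, while over the whole genome the H3K27ac lists covered 103.7 Mb in KO and 112.6 Mb in WT liver. Regions of both KO lists had a mean difference of 422 bp and 70 of 216 (32.4%) longer by 1.5-fold, and regions of neither had 170 bp and 32 of 236 (13.6%). With histone regions limited to a −log10 q-value of at least 5, the mean difference at the 340 regions was 492 bp and that over the gene starts 97.6 bp.

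The mark reached over the region's centre in KO liver alone at 32 regions (9.41%), against 5.61% of the gene starts, and in WT liver alone at 1 (0.294%), Cep112, against 2.86% of the gene starts. Of the 32, 12 were at a gene on one of the lists, a share near that of all 340 regions (136 of 340). Among the 12 were Ckap5 and Pbk (mitosis), Cdc25a and Lig1 (replication), Cep128 and Cep152 (centrosome) and Suv39h1 (chromatin). At Ckap5, H3K27ac covered 1311 bp in KO and 531 bp in WT liver. At Suv39h1 it covered 1560 bp in KO and 362 bp in WT liver. In WT liver 19 of the 340 regions had no H3K27ac in the window, and 11 of these had some in KO liver. Each of the 8 regions without it in KO liver also lacked it in WT liver. The largest difference was at the paired histone genes H2ac22 and H2bc22 (chr13:21787167-21787457), with 2878 bp in KO and 0 bp in WT liver. Next came Gtpbp1, with 3564 bp in KO and 876 bp in WT liver. Histone genes of the clusters are near-identical copies, so reads there may be shared between them.

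All 21 regions at mitosis and spindle genes had longer H3K27ac in KO, with a mean of 1844 bp in KO and 1295 bp in WT liver. At the 16 regions of kinetochore genes it was longer at 13, with 1881 bp in KO and 1653 bp in WT liver. It was longer at 12 of 14 centrosome gene regions, at all 5 regions of E2F components and at all 4 of condensin and cohesin genes. Longer H3K27ac was not limited to cell division genes. It was found at 6 of 7 regions of mitochondrial genes and at 7 of 9 of RNA processing genes. These counts stand beside the 73.2% of all 340 regions and the 44.4% of gene starts. Near or under the share of the 340 were the repair list (17 of 23), the nuclear pore list (7 of 10) and the replication list (11 of 17). So were the chromatin list (5 of 9, median difference 18 bp), the nucleotide supply list (1 of 2) and the negative regulators (1 of 3). The single SWI/SNF region, at Bcl7a, was shorter in KO (3231 bp, against 3569 bp in WT liver). Bora showed 2905 bp in KO and 1237 bp in WT liver, and Rbl1 2766 bp in KO and 1416 bp in WT liver. The 5 regions where it was shorter in KO by at least 1.5-fold were at Cnot3 (1718 bp in KO and 2877 bp in WT liver), Msh6 (1829 and 2958 bp), Zfp472 (1515 and 2424 bp), Med9 (1516 and 2419 bp) and Cdkn2a (676 and 1320 bp). Of these, Msh6 is on the repair list and Cdkn2a on that of negative regulators.

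H3K4me2 covered slightly less of the 340 regions in KO than in WT liver. The mean was 2489 bp in KO and 2563 bp in WT liver, a mean difference KO minus WT of -73.5 bp (median -40.5 bp), where the gene starts had a mean difference of 80.6 bp. It was longer in KO at 138 regions (40.6%), against 56.7% of the gene starts, and shorter at 188 (55.3%), against 37.7%. By at least 1.5-fold it was longer at 3 regions (0.882%), against 9.39% of the gene starts, and shorter at 12 (3.53%), against 5.13%. The 3 were at Plekhg2 (4001 bp in KO and 2627 bp in WT liver), at Cbwd1 (1877 and 1183 bp) and beside Rn18s-rs5 (1208 and 239 bp). The shorter ones included Stn1, a telomere replication factor gene (1325 bp in KO and 3111 bp in WT liver), and Msmo1 (2448 and 3821 bp). Others were Stil (1696 and 2832 bp), Chaf1a (1441 and 2537 bp), Blm (1679 and 2601 bp), Net1 (1321 and 2070 bp) and Cdc20 (1418 and 2133 bp). Regions of both KO lists had a mean difference of -69.2 bp and regions of neither 27.2 bp. The size of the mean difference moved by more than 1.5 times with the window, to -35.9 bp within 1000 bp and -47.2 bp within 5000 bp of the centre, and to -216 bp at the 54 regions found with E2f4 lists of equal length.

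At several genes the marks moved in opposite directions. Chaf1a had longer H3K27ac in KO (2051 bp, against 912 bp in WT liver) and shorter H3K4me2, and so did Stil (1912 bp of H3K27ac in KO and 1244 bp in WT liver). When the 340 regions were cut into 4 bins of 85 by mean WT rank, the mean H3K27ac difference was 413, 269, 289 and 216 bp, strongest first. The mean H3K4me2 difference was -141, -84.6, -63.1 and -5.04 bp in the same order. The bin of strongest E2f4 sites had the largest mean difference in size for each mark, without a strict order for H3K27ac. In the same order, mean H3K27ac was 2062, 1956, 2242 and 2155 bp in KO liver. In WT liver it was 1649, 1687, 1952 and 1938 bp. A relation between E2f4 strength and these differences was not tested.

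**Figure D5:**
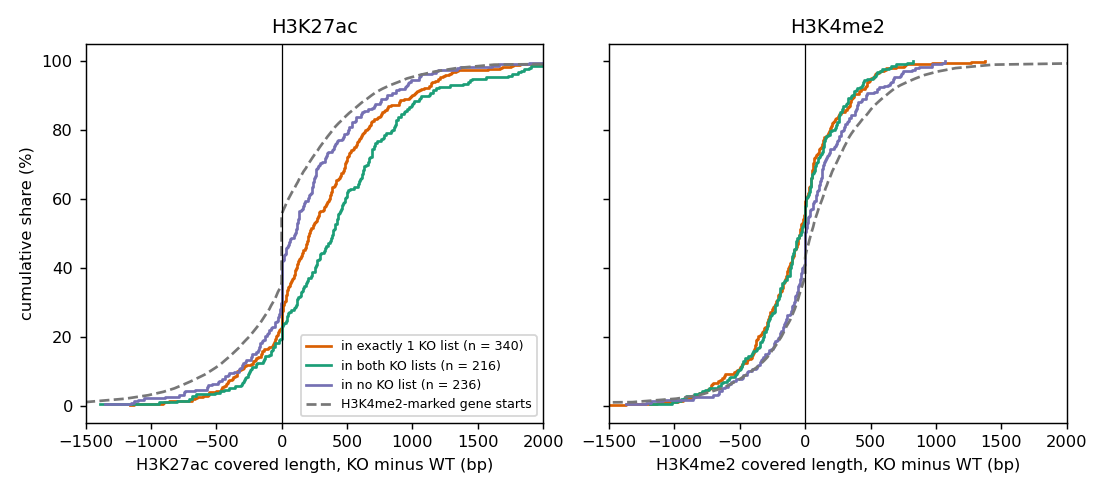
Cumulative share (y axis, %) of regions by difference in covered length KO minus WT (x axis, bp, within 2000 bp of the centre), for H3K27ac (left) and H3K4me2 (right). Solid lines are regions in exactly 1, both or no KO list, and the dashed line is 15085 gene starts with H3K4me2. The curve of the 340 regions lies right of the gene starts for H3K27ac (mean 297 bp) and left of them for H3K4me2 (mean -73.5 bp). The farthest values lie outside the axes.

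Markers of other cells moved between the mark libraries too, and their part in these differences was not tested. Within 2000 bp of the starts of 15 lymphocyte markers, H3K4me2 summed to 4164 bp in KO and 20239 bp in WT liver, and 11 of the genes in KO and 4 in WT liver were at 0, Cd8a, Klrb1c and Nkg7 among those at 0 in both. H3K27ac at these markers summed to 7574 bp in KO and 8282 bp in WT liver. For 15 endothelial markers, H3K4me2 summed to 40250 bp in KO and 30378 bp in WT liver, longer at 14, and H3K27ac to 38296 bp in KO and 43465 bp in WT liver, with Vwf at 0 for H3K27ac in both. For macrophage markers the sums were 15911 bp in KO and 14540 bp in WT liver for H3K4me2, and 28679 bp in KO and 32984 bp in WT liver for H3K27ac, and 3 genes in KO and 5 in WT liver were at 0 for H3K4me2, Vsig4 in both. For stellate cell and cholangiocyte markers they were 19544 bp in KO and 14325 bp in WT liver for H3K4me2, and 6395 bp in KO and 14727 bp in WT liver for H3K27ac, with Krt7, Krt19 and Cftr at 0 for both marks in both genotypes. H3K27ac sums of all 4 lists were lower in KO. For lymphocyte markers the sum rested on few genes, with 10 of 15 at 0 in each genotype, 3 longer in KO and 4 shorter. The 38 hepatocyte genes carried both marks in both genotypes without exception, with H3K27ac sums of 138346 bp in KO and 134012 bp in WT liver.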

How the data were processed

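Of 16 samples, 8 were immunoprecipitations with 1 peak list each, and 8 were inputs, not used here. Bowtie2 2.2.3, Picard, MACS2 2.0.10.20131216, HOMER and build mm10 are listed, without a role, in the submitters' processing notes. Each deposited list gives a peak's position, its fold enrichment (a ratio) and its −log10 p-value and −log10 q-value, and the deposited score was not used. Lists were per library, not pooled, and hold no counts, so depth is unknown; fewer peaks may be called at lower depth. The fold and −log10 q-value served only to rank, filter or describe peaks within a list. Where values of several libraries stand side by side, they are no measure of change between them.

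Peaks were merged at 1 bp of overlap. Gene starts came from RefSeq tables of GRCm38.p6, and genes without a start entry were placed by both outer ends. Of 1054 entries on 20 gene lists, 1050 matched. Marks were the covered length within 2000 bp of a region's centre, and the comparison set was 15085 gene starts with H3K4me2 in either genotype. Motifs were searched as exact letters on both strands. Shares have exact Clopper-Pearson 95% intervals. The regions were chosen by E2f4 calls and each mark has 1 library per genotype, so no test was run. Candidates for naming were the 12 strongest regions, those of KO replicate 1 only, up to 6 per list and the weakest. They also held the farthest from a gene, those at the edge of the rule and the largest mark differences. Not all candidates are named, and Traip and Ankle1 are among the strongest left out above. Other genes with values (among them Cbwd1, Cep112, Blm, Cdc20) were chosen after their values were seen. List members without values are named as members only. Members, lists and rule were chosen with earlier results of these data known. Alternatives were stricter q-values, other overlaps, windows and distances, lists of equal length and leaving out each E2f4 library. Scripts were tested on simulated data. Python 3.11.15, pandas 2.3.3, numpy 2.4.6 and scipy 1.17.1 were used.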

Additional observations from a re-analysis of the deposited data

How the results depend on the processing

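The 4 summary values (the number of regions, their share at gene starts and the mean KO minus WT difference of each mark) were recomputed under each alternative, and 41 of 52 values moved by less than the margin set for them, none changing sign. With E2f4 lists of equal length there were 54 regions, 96.3% at gene starts, with a mean H3K4me2 difference of -216 bp. Leaving out each E2f4 library in turn gave 220 to 552 regions, 88.3 to 94.1% at gene starts, mean H3K4me2 differences of -73.9 to -52.1 bp and mean H3K27ac differences of 285 to 425 bp. The share at gene starts was 86.5% within 500 bp and 93.8% within 5000 bp, by construction. The mean H3K4me2 difference was -35.9 bp within 1000 bp and -47.2 bp within 5000 bp of the centre, and the mean H3K27ac difference was 492 bp with histone −log10 q-values of at least 5; the cause was not tested. A window centred on the gene start and the removal of 3 mitochondrial or ribosomal regions, both chosen after seeing the data, moved none of the values past their margin. No paired analysis was possible because the values come from no test: the E2f4 regions were chosen by the calls of all 4 libraries, and each mark has 1 library per genotype. Unknown depth limits every statement on a missing peak.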
